A study of Mus musculus with 8 samples.

Results

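Fibronectin is encoded in the mouse by 1 gene, Fn1, whose alternative exons were followed here through every row listed under that name in both deposited splicing tables. These were 3 of 1360 rows, namely 2 of 862 local splicing variations and 1 of 498 junction usage events. The 2 local variations held 5 junction values of 6866 in all. The samples were cultured hepatocytes, the liver's main cell type, from C57BL/6J mice with floxed alleles of Srsf3. For 48 h they were infected with an adeno-associated virus (AAV). In the AAV-CRE group (4 libraries, genotype label Srsf3-KO) the virus expressed Cre, a recombinase that cuts the floxed stretch out of Srsf3, and in the AAV-GFP group (4 libraries, genotype label Srsf3-flox) it expressed green fluorescent protein. Both groups thus came from mice with the floxed alleles and received a virus, and cells infected with no virus were not analysed here. Age, sex and the number of animals are not given in the labels, so the libraries may share an animal.

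The measure was percent spliced in (PSI), the share, from 0 to 1, of the reads at a splice choice that use a given junction. The authors deposited 1 PSI per group and junction and 1 change per comparison, so neither depth nor replicate spread can be given beside a value. Both tables hold rows that were already selected. A junction with a change of 0.2 or more was present in 821 of the 862 local variations (95.2%), and the junction usage table lists events at p below 0.05. Srsf3, the targeted gene, checked the labels: its junction from exon 1 to exon 2 had a PSI of 0.157 in AAV-CRE and 0.998 in AAV-GFP in the authors' deposited table. Neither table holds levels of RNA, so the cell type could not be checked by expression. None of 8 hepatocyte, 7 stellate cell and fibroblast, 4 endothelial and 4 cholangiocyte markers had a listed splicing row, and 1 of 4 macrophage markers, Cd68, had one. In bulk RNA, a change of splicing within cells and a change in which cells supply the Fn1 RNA cannot be told apart.

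Fibronectin is a large glycoprotein of repeated modules that links cells to the matrix through integrins, fibrin and collagen. Hepatocytes secrete plasma fibronectin into the blood, which as a rule lacks both extra domains. Fibroblasts, activated stellate cells and endothelial cells make cellular fibronectin, which can carry the extra domain A (EDA) and the extra domain B (EDB), each a type III module encoded by a single cassette exon. A variable region, known also as the connecting segment, is shaped by the choice of 3' splice sites within an exon and holds binding sites for further integrins. SRSF3, the product of the gene targeted in AAV-CRE cells, is an SR protein, a family of RNA-binding regulators of which several act on EDA in other cell systems.

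In mm10, Fn1 (ENSMUSG00000026193.15) lies on the minus strand of chromosome 1, from 71585520 to 71653200, a span of 67.7 kb. GENCODE vM21 gives it 17 transcripts, of which 7 are full-length coding forms, and the longest set of exons is that of Fn1-201, with 46 exons. The annotation does not name the domains. Exon 33 of Fn1-201 (chr1:71603660-71603929) is a cassette exon of 270 nt, found in 4 of the 7 full-length forms, and is called EDA here. Exon 25 (chr1:71613763-71614035) is the other cassette exon, with 273 nt, found in 1 of the 7, and is called EDB. Exon 40 begins at 3 alternative 3' splice sites and ends at the same base, which gives exons of 107, 392 and 467 nt in 2, 2 and 3 of the 7 forms, and is the variable region. The longer forms add 95 and 120 codons to the shortest. The single form with EDB also holds EDA, while 3 forms hold EDA without EDB and 3 hold neither.

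**Figure D1:**
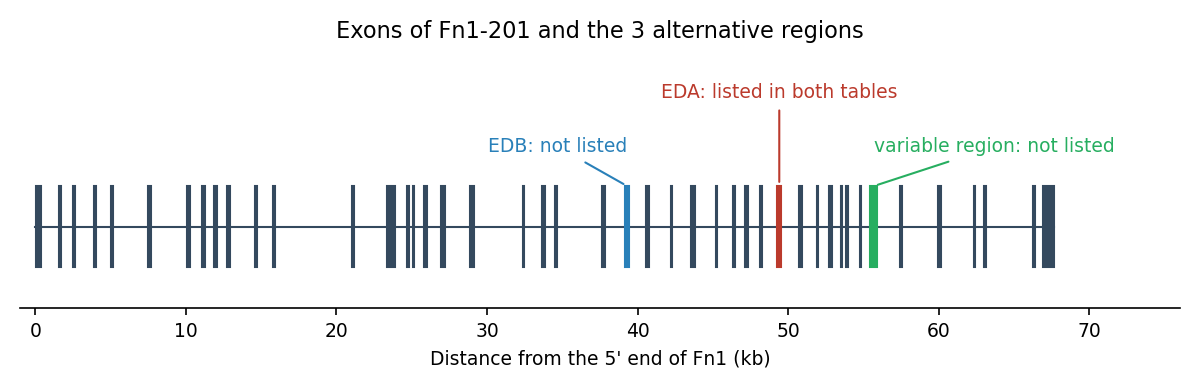
Exons of the transcript Fn1-201 (boxes) along the gene, drawn to scale as distance in kb from the 5' end of Fn1, with the 3 alternative regions in colour. Among these regions, EDA is the 1 for which the deposited tables list a row.

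EDA keeps the reading frame. Its 270 nt make up 90 codons, no stop codon lies in frame, and the open reading frame of Fn1-201 has 2477 codons with EDA and 2387 without it. The sequence of the exon is shown because every Fn1 row concerns it. It was read from the GENCODE vM21 transcript Fn1-201, on the minus strand of chr1:71603660-71603929, 5′ to 3′, with the words CATC and GAAGA in capitals.
EDA exon: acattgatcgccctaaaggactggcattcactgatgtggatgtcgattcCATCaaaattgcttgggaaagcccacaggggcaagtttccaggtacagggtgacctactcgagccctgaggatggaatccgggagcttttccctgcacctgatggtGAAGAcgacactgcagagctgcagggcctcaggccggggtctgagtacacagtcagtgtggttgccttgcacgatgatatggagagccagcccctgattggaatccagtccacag

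The 3 junctions that the results turn on are shown as spliced RNA, written as DNA, with 20 bases on each side. The exon before the junction is in lower case and the exon after it in capitals. The exon before EDA is exon 32 (chr1:71604970-71605083, 114 nt) and the exon after it is exon 34 (chr1:71602310-71602497, 188 nt), both present in all 7 full-length forms.
Junction into EDA: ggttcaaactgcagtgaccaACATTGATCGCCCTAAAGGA
Junction out of EDA: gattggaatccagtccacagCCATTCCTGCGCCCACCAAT
Junction that skips EDA: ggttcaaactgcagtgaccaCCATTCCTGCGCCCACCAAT

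The splice sites that the skipping junction joins could be read from annotated transcripts that retain intron sequence. Fn1-215 gave the 5' splice site of exon 32 (chr1:71604950-71604989) and Fn1-212 gave the 3' splice site of exon 34 (chr1:71602478-71602517). The capitals mark the first 2 and the last 2 bases of the intron, GT and AG.
5' splice site of exon 32: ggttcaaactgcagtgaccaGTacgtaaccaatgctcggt
3' splice site of exon 34: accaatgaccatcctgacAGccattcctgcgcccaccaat

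EDA was included more in AAV-CRE than in AAV-GFP hepatocytes on both of its sides, and the junction that skips it was used less. Of the junctions that leave exon 32, the junction into EDA (71603929 to 71604970, across an intron of 1040 nt) had a PSI of 0.388 in AAV-CRE and 0.005 in AAV-GFP in the authors' deposited table. An expected change of 0.374, AAV-CRE minus AAV-GFP, was given for it in the authors' deposited table. Seen from this side, EDA was almost unused in AAV-GFP. The junction that skips EDA (71602497 to 71604970, across 2472 nt) had a PSI of 0.609 in AAV-CRE and 0.969 in AAV-GFP in the authors' deposited table, with an expected change of -0.377. Skipping was still the more used choice in both groups.

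The third value of this variation belongs to intron sequence next to EDA, upstream in the RNA. The stretch from 71603930 to 71604096 (167 nt) is the part of the 1040 nt intron that no annotated Fn1 exon covers. It had a PSI of 0.004 in AAV-CRE and 0.026 in AAV-GFP, with an expected change of -2.32e-05, in the authors' deposited table. The difference of the group PSI values was -0.022, which differs from the expected change, and both PSI values are at the low end of the scale. The intron part is the 1 Fn1 value under the size threshold of 0.2, by either measure.

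The second variation counts the junctions that enter exon 34 and views the same exon from its other side. Both variations hold the skipping junction and come from the same libraries, so they are not independent. The junction out of EDA (71602497 to 71603660, across 1162 nt) had a PSI of 0.453 in AAV-CRE and 0.106 in AAV-GFP in the authors' deposited table. Its expected change in the authors' deposited table was 0.357. The junction that skips EDA, counted here among the junctions into exon 34, had a PSI of 0.547 in AAV-CRE and 0.894 in AAV-GFP, with an expected change of -0.357, in the authors' deposited table. No intron part was listed in this variation.

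**Figure D2:**
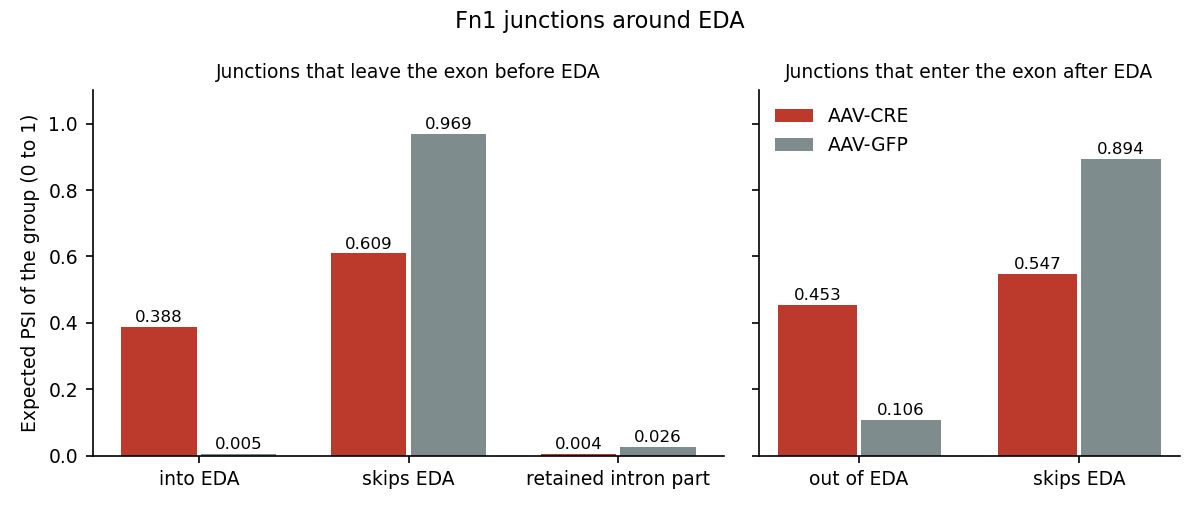
Expected PSI of each Fn1 junction around EDA, as the authors' 1 value per group, on an axis from 0 to 1; no error bars can be drawn, since values per library are unknown. Bars show AAV-CRE and AAV-GFP for the junctions that leave exon 32 (left) and those that enter exon 34 (right): the junctions into and out of EDA stand at 0.388 and 0.453 in AAV-CRE, against 0.005 and 0.106 in AAV-GFP.

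Of the 5 Fn1 values, 4 changed by at least 0.2, with the 2 inclusion junctions higher and the 2 skipping values lower in AAV-CRE. Over all junctions of the table, 22.3% changed by that much, and 54.1% did outside 3 crowded windows of 100000 bp with 8 or more variations each. The Fn1 rows lie outside these windows. Nearly every listed variation holds such a junction, and the values of 1 variation add up to 1. The count for Fn1 is therefore a description. No test of these values was possible, since there is 1 value per group. The table has a column for the probability of exceeding 0.2, which held 0.999902 for the junction into EDA and 0.999941 for the junction out of it in the authors' deposited table. All 4155 junctions with a change under 0.02 also had 0.95 or more in that column, so this column was not used.

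The views from either side of EDA gave nearly the same change but different levels. Inclusion was 0.065 lower by the junction into EDA than by the junction out of it in AAV-CRE, and 0.101 lower in AAV-GFP, while the expected changes differed by 0.017. The skipping junction, which is the same in both variations, had PSI values that differed by 0.062 in AAV-CRE and 0.075 in AAV-GFP. Outside the crowded windows, 75 junctions were listed in 2 variations and changed by at least 0.2 in either. Their PSI differed between the variations by a median of 0.042 in AAV-CRE and 0.012 in AAV-GFP, and by upper quartiles of 0.074 in AAV-CRE and 0.050 in AAV-GFP. A gap at least as large as that of Fn1 was found for 26 of the 75 junctions in AAV-CRE and 15 of the 75 in AAV-GFP, Fn1 included. Whether inclusion in AAV-GFP was near 0.005 or near 0.106 is thus not settled by these values.

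The same exon was found by junction usage. EDA was listed as a cassette exon with a change of 0.291, AAV-CRE minus AAV-GFP, a p-value of 0.000164 and a q-value of 0.0291 in the authors' deposited table. It passed the threshold used here, a q-value of at most 0.05 with a change of at least 0.1, as 12.2% of the 131 listed cassette exons did in either direction and 3.82% did in the direction of more inclusion. The sign was that of both local variations, and the size was below their 0.374 and 0.357. Both tables come from the same libraries, so they are not independent. Since nothing says that the libraries came from separate animals or cultures, these p-values may measure technical spread only. The junction usage table gave the edges of EDA and of its neighbours 0 to 2 bases away from the annotation, by steps that held for most events. In genome order, the exon end before the cassette matched an annotated edge as written in 131 of 131 cassette events, and the exon start after it did with 2 bases added in 131. The start of the cassette exon matched with 1 base added in 126 and its end as written in 124.

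Among the cassette exons of that table, EDA was among the longest, while its change was not among the largest. Of the 131 events, 52 were higher and 79 lower in AAV-CRE, and the change of EDA ranked 16 among the 52. By q-value it also ranked 16 among the 131. The median size of change over the 131 was 0.225. The 5 exons called higher were those of Afdn, a cell junction protein (0.589, q = 0.00489), 2010111I01Rik (0.540, q = 0.0276), Hnrnpl, an RNA-binding splicing regulator (0.426, q = 0.0146), Fn1 (0.291) and Rab2a, a small GTPase of membrane traffic (0.146, q = 0.012), all as given in the authors' deposited table. With 270 nt EDA was the longest of these 5, the others having 21, 13, 70 and 44 nt in the same order. Over all 131 events the median length was 90 nt, and 6 exons, EDA included, had 270 nt or more. Of these 6, 1 other was called, an exon of 434 nt in Cd68, a lysosomal glycoprotein of macrophages, whose PSI change in the authors' deposited table was -0.106 (q = 0.0178). The length of EDA is divisible by 3, as were the lengths of 83 of the 131 exons.

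**Figure D3:**
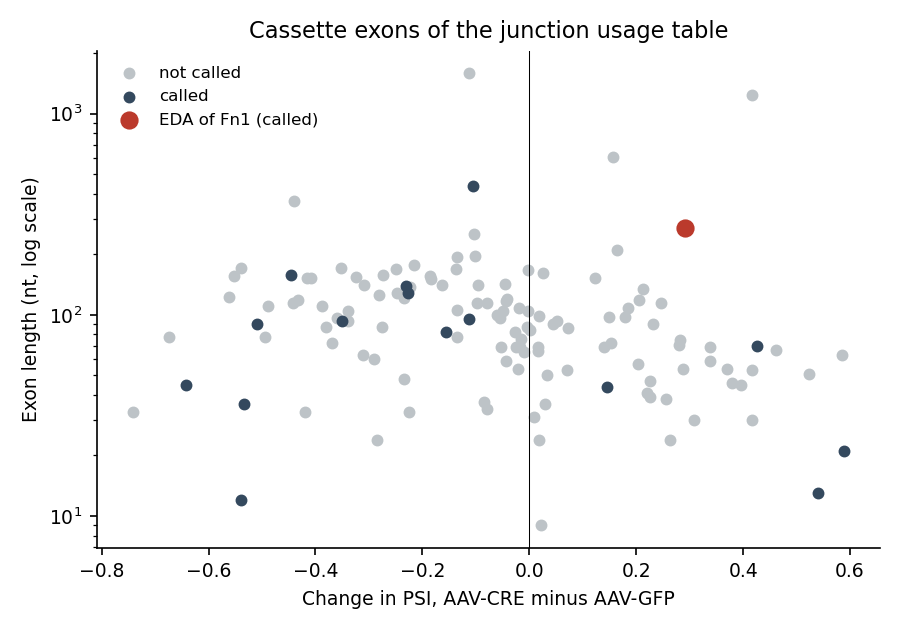
Length in nt (log scale) against change in PSI, AAV-CRE minus AAV-GFP, for the 131 cassette exons of the junction usage table, 1 point per event. Dark points passed the q-value and size thresholds; EDA, in red, lies at 0.291 and 270 nt, above the other 4 exons called higher, which have 13 to 70 nt.

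EDB and the variable region were not listed in either table. No Fn1 row touches an edge of EDB (exon 25) or any of the 3 splice sites of the variable region (exon 40), also when edges were allowed to differ by 2 bases. Of the 45 introns of Fn1-201, 2 were listed as junctions, those on either side of EDA, beside the junction that skips it. No row under another gene name lay in the Fn1 locus. Since both tables hold selected rows, no PSI of EDB or of the variable region is known here for either group, and the missing rows do not show that these regions stayed the same. No exon of another annotated gene lies between exons 32 and 34.

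The letters of EDA were searched for words linked to splicing, on the RNA strand and, for comparison, on the opposite strand. The background was 3028 internal exons of coding transcripts in GENCODE vM21 with 255 to 285 nt. CATC, a word bound by the RNA recognition motif of SRSF3, occurred 1 time in EDA, at position 50 counted from 1 at the exon's 5′ end, and in 75.6% of the background exons. The set of 8 words of the form NCNNC with A or T at each N, a further description of SRSF3 sites that can overlap with CATC, had no match in EDA. At least 1 of the 8 occurred in 89.1% of the background exons and in 33 of the 44 internal exons of Fn1-201, EDB among them with 4. On the opposite strand of EDA these 8 words had 4 matches and CATC had 5.

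The purine-rich word GAAGAAGA, known as an enhancer of EDA in the human gene, had no match in the mouse exon and occurred in 3.4% of the background exons. Its shorter part GAAGA occurred 1 time, at position 156, and in 51.4% of the background exons. CAAGG, known as a silencer of the human exon, had no match on the RNA strand and 1 on the opposite strand, and occurred in 37.8% of the background exons. On the opposite strand GAAGAAGA and GAAGA had no match. A match is a run of letters and not a shown site, and no match says only that these letters are not in this exon. The GC content of EDA was 54.8%, close to the median of 53.7% over the background exons and 53.9% over the internal exons of Fn1-201. EDB had 49.5%, exon 32 had 48.2% and exon 34 had 53.2%.

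A chosen list of 55 annotated genes held integrin chains, some adaptor proteins of integrin adhesions, collagens, laminins and other matrix proteins, and 1 of them had a row in the tables, Ilk, the integrin-linked kinase. The share of spliced RNA at its intron between 105742337 and 105742513 on chromosome 7 was 0.660 in AAV-CRE and 0.999 in AAV-GFP, with an expected change of -0.325, in the authors' deposited table. By junction usage, retention of the same intron had a change of 0.488 and a q-value of 0.021 (authors' deposited table). The antisense gene Taf10 has an exon over it, and whether the authors' counting used strand is not given in the sources used here. Chains of the fibronectin receptors themselves, such as Itga5, Itgb1, Itga4 and Itgav, had no listed row. Local variations name 354 genes and junction usage names 414, out of a number of expressed genes that is unknown here. Whether 1 listed gene of 55 is few or many was therefore not tested. A missing row does not show that splicing of a gene stayed the same. The list is not complete: Actn1 and Flna, which encode the actin-binding adaptors alpha-actinin and filamin, are outside it and had rows.

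Of 31 splicing regulators known to act on fibronectin exons, or related to such regulators, 13 were listed and 10 were called in either table. All 10 were called by local variations, where 100% of the 354 listed genes were, so this count carries no further information. By junction usage 5 of the 11 listed genes were called, against 11.6% of all 414 named genes there. These were Srsf3 itself, Srsf2, Hnrnph1, Hnrnpl and Mbnl2, a regulator of developmental splicing. Srsf3 is the gene cut by Cre, so its call follows from the design. The list was also chosen with earlier results of these data known, so these shares do not test whether such regulators were called more often. The largest changes of a single junction by local variations, after that of Srsf3 (0.974), were those of the SR proteins Srsf6 and Srsf5 and of Ptbp1, a repressor of many exons. The most changed junction of Srsf6 had 0.837 in AAV-CRE and 0.185 in AAV-GFP, that of Srsf5 had 0.584 in AAV-CRE and 0.184 in AAV-GFP, and that of Ptbp1 had 0.898 in AAV-CRE and 0.537 in AAV-GFP, in the authors' deposited table. By junction usage Srsf5 and Ptbp1 were listed but not called, with lowest q-values of 0.272 and 0.311, and Srsf6 was not listed. The PSI of a junction does not say whether an exon was included more. The part of these changes in that of EDA was not tested.

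The skipping junction of EDA among the junctions that leave exon 32 was the most changed Fn1 junction, and its PSI values were compared with the most changed junction of 320 other genes with names other than Gm or Rik numbers. The 5 genes nearest in both groups at once, by Euclidean distance in PSI, were Rab24, Trnau1ap, Sltm, Med6 and Sec31a, at distances of 0.016, 0.016, 0.017, 0.020 and 0.026. Rab24, a small GTPase linked to autophagy, had 0.597 in AAV-CRE and 0.959 in AAV-GFP in the authors' deposited table. Sec31a, a coat protein of vesicles that leave the endoplasmic reticulum, had 0.592 in AAV-CRE and 0.989 in AAV-GFP in the authors' deposited table. The likeness is over 2 group values only and does not compare what the junctions do to an exon.

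**Figure D4:**
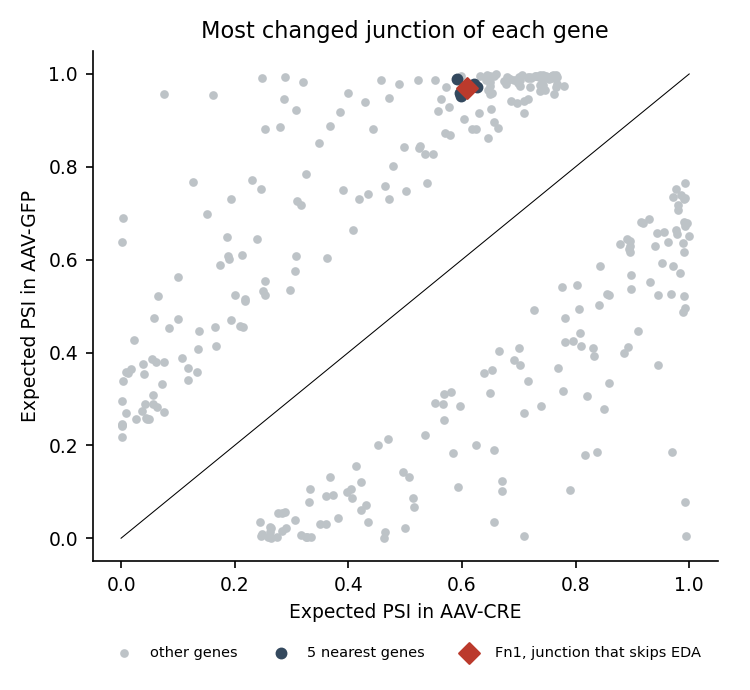
Expected PSI in AAV-CRE (x axis) and AAV-GFP (y axis) of the most changed junction of each named gene in the table of local variations, 1 point per gene, with the line of equal PSI. The Fn1 junction that skips EDA (red diamond, 0.609 and 0.969) lies above the line, beside the 5 nearest genes in dark.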

How the data were processed

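RNA of 8 stranded mRNA libraries (4 AAV-CRE, 4 AAV-GFP) was read from paired ends, per the labels' protocols. FastQC, STAR and the build mm10 are named in the submitters' processing notes, with roles and versions not given in the sources used here. The authors deposited a table of local splicing variations whose columns are those of MAJIQ's VOILA output, per the file headers, with expected PSI values as fractions per group. The sign of the deposited change was reversed to give AAV-CRE minus AAV-GFP, which correlated with the PSI difference at 0.996 over 6866 junctions. The authors' second table was made with JUM at p below 0.05, per the file headers, and gives a p-value, a q-value and a PSI change per event, which was not finite for 63 of 498 events. On the minus strand, local variations are named source or target in genome order in 406 of 411 cases, and are described here in RNA order.

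Junctions were called at a change of at least 0.2, and events at a q-value of at most 0.05 with a change of at least 0.1. Exons, frames and sequences came from GENCODE vM21. Readers and counts were checked on simulated tables. The Fn1 rows, gene lists and thresholds were chosen with earlier results of these data known. Named genes were all Fn1 rows, Srsf3, up to 4 called genes with the largest change per list, and the 5 genes nearest to Fn1 in PSI; the exons called higher, Srsf2, Hnrnph1, Mbnl2, Cd68, Actn1 and Flna were named after their values were seen, and so were the searched words. Python 3.11.15, numpy 2.4.6 and matplotlib 3.10.9 were used.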

Additional observations from a re-analysis of the deposited data

How the results depend on the processing

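No alternative tried on the Fn1 rows changed a count, a direction or a call there. These were the size thresholds of 0.1 and 0.3, the difference of group PSI values (0.383 for the junction into EDA), the junction out of EDA (0.357), p in place of q, other size thresholds by junction usage, any gene name in the locus and edges within 2 bases. Several of these had a fixed outcome and lend no support. Every event listed by junction usage has p below 0.05. The changes at the EDA junctions, 0.357 or more in size, and the 0.291 by junction usage pass each size threshold tried on them. Over the other rows, junction usage calls numbered 51 without the crowded windows, against 57 in all; 13 splicing regulators were listed, against 10 called, and 1 matrix gene was both listed and called. The number of junctions called over the whole local variation table moved with what was counted: 1531 of all junctions, 792 (54.1%) without the crowded windows and 821 (95.2%) with the most changed junction of each variation, since fewer junctions are then counted. No paired analysis was possible because the tables hold 1 value per group or comparison, and for the same reason no replicate could be left out. Depth is unknown, so no interval of a PSI value can be given.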
